A study of Mus musculus with 2 samples.

Results

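Melanocytes of the embryonic mouse eye were examined in single-cell libraries of eye cups at e15.5. Cells were chosen by their own counts. A cell had to hold unique molecular identifiers (UMIs, which count captured transcripts) of 2 or more of the neural crest genes Pax3, Kit, Ednrb and Sox10. It also had to hold UMIs of 3 or more of the pigment genes Dct, Pmel, Mitf, Mlana, Tyr, Slc45a2 and Mlph. Among the 20430 cells with at least 200 genes, at least 2000 UMIs and a mitochondrial share of at most 15%, 129 met this rule, 85 in the control library and 44 in the mutant library. The levels of these 11 genes in the chosen cells follow from the choice and are given as a description.

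The control library came from Myrf fl/fl embryos and the mutant library from Rx>cre Myrf fl/fl embryos, and each pooled 3 eye cups. Both Myrf alleles carried loxP sites in both groups, and in the mutant Cre was driven by Rx regulatory sequence, which is active in the early eye field that gives rise to the retina and the retinal pigment epithelium (RPE). Neural crest cells lie outside that field. Cornea, lens and optic nerve had been removed and the cells freed with papain, so a choroidal cell could enter the libraries only as far as the choroid stayed on the eye cup. Each genotype had 1 library. No value had a replicate, so no test was made, and every interval given covers counting error only and not the spread between embryos.

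The eye holds pigment cells of 2 origins. The RPE is a sheet of neuroepithelium, while the melanocytes of the choroid, iris and ciliary body descend from neural crest cells that migrate into the periocular mesenchyme. In melanoblasts, PAX3 and SOX10 act on Mitf, the master regulator of the lineage, and MITF in turn acts on the genes that build melanin. KIT, a receptor tyrosine kinase, and EDNRB, a G protein-coupled receptor for endothelin, carry the signals that melanoblasts need to survive, spread and migrate. Tyrosinase (Tyr) opens melanin synthesis, while dopachrome tautomerase (Dct) and Tyrp1 act on later intermediates and Pmel forms the fibrils on which melanin is laid down.

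MITF binds the 6 bases CATGTG, the core of a promoter element known as the M box. Stretches of 30 bases around this core are shown for pigment genes whose levels are compared here, most of which serve both kinds of pigment cell, and for Kcnj13, which differed between the genotypes. The windows searched were the 250 bases before each RefSeq gene start on GRCm38.p6, on both strands, with the core in capitals and each stretch written on the strand of its gene, where CACATG is its reverse complement. The stretch of Tyr lies at chr7:87493516-87493545 on the minus strand with its core starting at position -21 from the gene start, and that of Tyrp1 at chr4:80834155-80834184 on the plus strand at -46. Dct holds 2 cores on the minus strand, at chr14:118052379-118052408 (-150) and chr14:118052461-118052490 (-232). The stretches of Trpm1 (chr7:64153682-64153711, plus strand, -141), Oca2 (chr7:56239561-56239590, plus strand, -186) and Slc24a5 (chr2:125068102-125068131, plus strand, -13) belong to genes outside the rule, as do those of Cited1 (chrX:102251968-102251997, minus strand, -142), Slc7a11 (chr3:50443670-50443699, minus strand, -74) and Kcnj13 (chr1:87394824-87394853, minus strand, -112). The stretches of Tyrp1, Slc24a5 and Cited1 overlap the longest GENCODE gene span, and the others named lie upstream of it.
Tyr: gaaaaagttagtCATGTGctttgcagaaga
Tyrp1: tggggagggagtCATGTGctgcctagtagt
Dct, proximal: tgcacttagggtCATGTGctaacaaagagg
Dct, distal: gcttggctgggaCACATGagcccaataaag
Trpm1: ccaaatcctcatCATGTGcccaccccaaac
Oca2: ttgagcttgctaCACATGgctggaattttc
Slc24a5: aaggagactgctCACATGattcagcataag
Cited1: cacgagccaggaCATGTGctaataatgctc
Slc7a11: ctggagttttctCATGTGgctgatgcaaac
Kcnj13: agcattcttttcCACATGatcagagctaat

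The core stood in 2 of the 4 pigment genes of the rule that have a window, in 7 of the 14 melanin genes outside the rule that have one and in 3742 of all 27025 genes (13.85%). Tyr, Tyrp1 and the proximal site of Dct share the 9 bases tCATGTGct, which were found in 110 of 32851 windows (0.335%). Pmel, Mlana and Slc45a2 have no window in the table. A match describes these letters and is not evidence that the factor binds there.

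The 129 cells were not of 1 kind. Pax3, which had 0 UMIs in 220 control and 1 UMI in 99 mutant RPE cells, a class from which cells that met the rule had been left out, was detected in 54 of the 85 control cells and in 25 of the 44 mutant cells. Of the Pax3-negative cells, 24 in the control and 16 in the mutant carried UMIs of 2 or more of 6 genes used to gate RPE cells (Rlbp1, Slc16a8, Rdh5, Rgr, Otx2 and Lhx2). These cells had passed on few crest UMIs. Scaled as counts per 1000000 UMIs of the summed cells (CPM), the 4 crest genes came to 154 (control) and 146 (mutant), and the RPE gate genes to 1703 and 1566. RPE cells held the gate genes at 1209 and 901 CPM, but these sums follow from how the cells were chosen. Of the 10 listed RPE genes outside the gate, 8 in each library had a UMI in these cells. Leaving out Ptgds, which was abundant in the Pax3-positive cells too and was set aside after its values were seen, the other 9 summed to 12133 and 6839 CPM, and to 3274 and 4130 CPM in RPE cells. Ttr, the retinol and thyroxine carrier, made up 77.7% and 55.9% of those UMIs in the Pax3-negative cells. The Pax3-negative cells with RPE genes often entered through Kit with 1 other crest gene. Of the cells with exactly 2 crest genes, Kit and Ednrb made the pair in 7 control and 15 mutant cells, and Kit and Sox10 in 12 and 1.

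A further 13 control and 4 mutant cells had Pax3 but met the gate of another class as well. In the control, 7 of these held 5 or more mesenchyme genes, 5 held 3 or more retinal progenitor genes and 1 was 37.8% haemoglobin UMIs. Their median depth was 24363 and 22644 UMIs. The doublet caller Scrublet marked 2 of the 13 and none of the 4. The remaining Pax3-negative cells, 7 in the control and 3 in the mutant, met no RPE gate. The 3 mutant cells among them had crest genes at 3296 CPM and pigment genes at 33197 CPM. The 7 control cells had 396 and 4899 CPM, sums that include 1 cell of 159610 UMIs, the deepest kept cell of the control library. No other gate was met by 5 of the 7 and by all 3, and the set below leaves these cells out for want of a Pax3 UMI.

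Cells with a Pax3 UMI and no other gate met, 41 in the control and 21 in the mutant, are called melanocytes from here on. This set was chosen after the values were seen. Its crest genes summed to 2395 CPM (95% Poisson interval 2270 to 2525) in the control and to 2530 CPM (2355 to 2715) in the mutant, against 44.9 and 36.6 CPM in RPE cells. That contrast follows from the rule, because RPE cells with 2 or more crest genes had been left out of their class. The pigment genes of the melanocytes summed to 20849 CPM and 26249 CPM. RPE gate genes had 3 UMIs in each library, which follows from the choice of the set. All 16 listed RPE genes together came to 6631 and 11088 CPM, above the 5876 and 6369 CPM of RPE cells, and Ptgds alone made up 97.6% and 98.5% of this. The 9 listed RPE genes outside the gate other than Ptgds summed to 154 and 161 CPM, against 3274 and 4130 CPM in RPE cells. Rpe65 was at 0 in melanocytes and RPE cells alike. All 8 mast cell genes, which mark another Kit-positive cell, were at 0 in both libraries. Mesenchyme genes summed to 77.1 and 115 CPM, and 8 of 10 in the control and 7 of 10 in the mutant had a UMI.

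**Figure D1:**
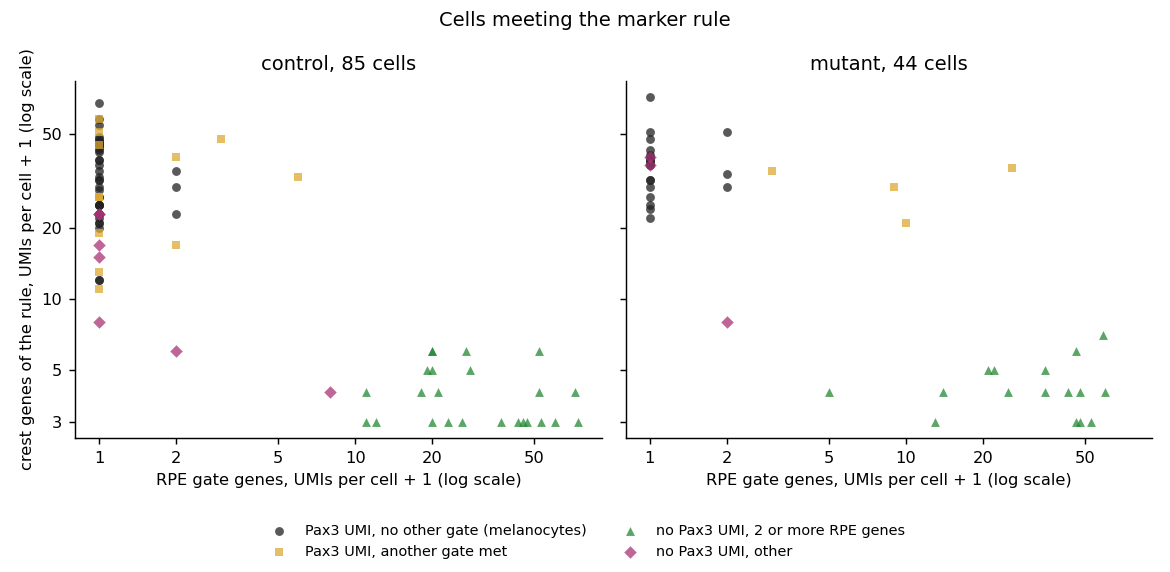
Each point is a cell that met the marker rule, with the UMIs of the 4 crest genes of the rule plus 1 on the vertical axis and the UMIs of the 6 RPE gate genes plus 1 on the horizontal axis, both on log scales. Melanocytes (black) sit at high crest counts with RPE gate counts of 0 or 1, while the 24 control and 16 mutant Pax3-negative cells with 2 or more RPE genes (green) sit at low crest and high RPE counts.

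On the crest side, most cells just outside the rule held RPE gate genes. With 3 or more pigment genes and only 1 crest gene there were 102 control cells, 93 of them with 2 or more RPE genes, and 43 mutant cells, 37 of them with 2 or more RPE genes. Just inside, at exactly 2 crest genes, there were 26 control and 18 mutant cells, none with Pax3. On the pigment side, 7 cells in each library had 2 crest genes or more and only 2 pigment genes.

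Depth was similar in the melanocytes of both libraries, with a median of 12713 UMIs per cell (7696 to 31111) in the control and 13467 (8093 to 30770) in the mutant. The libraries held 13017 and 13880 barcodes with 132436812 and 135678970 UMIs, of which 9722 and 10708 cells were kept. They shared 69 barcodes, and 1 of the chosen control cells had such a barcode. The sexes of the pooled embryos differed. Y-linked UMIs were found in 4 kept control cells and 5382 kept mutant cells. All 41 control melanocytes had an Xist UMI and none had a Y-linked UMI, whereas 7 of the 21 mutant melanocytes had Xist alone, 11 had Y-linked UMIs alone and 3 had neither.

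Melanocytes made up 0.422% of kept cells in the control (41 of 9722) and 0.196% in the mutant (21 of 10708), a ratio of 0.465 (exact conditional 95% interval 0.261 to 0.805). For all cells that met the rule, the shares were 0.874% and 0.411%, with a ratio of 0.47 (0.319 to 0.684). RPE cells, in which Rx>cre acts, numbered 220 and 99, a ratio of shares of 0.409 (0.319 to 0.520). Both pigment cell classes were thus counted less often among the kept cells of the mutant library.

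The size of that ratio depended on the class it was set against. Periocular mesenchyme also formed a smaller share of the mutant library, with 3189 and 2294 cells. Per mesenchyme cell, the ratio for melanocytes was 0.712 (0.399 to 1.24), and its interval takes in 1. Against Schwann-type cells, the other crest derivatives that carry Sox10, with 40 cells in the control and 39 in the mutant, it was 0.525 (0.249 to 1.10). For RPE cells the intervals stayed under 1 against both classes, with ratios of 0.626 (0.485 to 0.802) and 0.461 (0.271 to 0.787). How much choroid stayed on the eye cups of each pool cannot be told apart from genotype here.

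**Figure D2:**
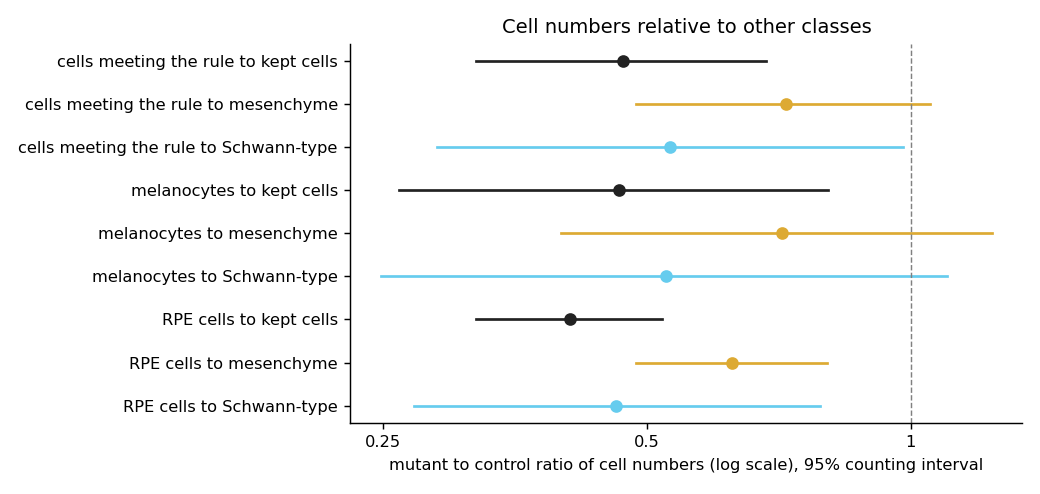
Mutant to control ratio of cell numbers, with 95% counting intervals, on a log axis for all cells that met the rule, melanocytes and RPE cells, each per kept cell, per mesenchyme cell and per Schwann-type cell. The interval for melanocytes lies under 1 per kept cell (0.465) and crosses 1 per mesenchyme cell (0.712) and per Schwann-type cell (0.525).

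The crest receptors and transcription factors of the rule were close between the libraries. Sox10 (chr15:79154908-79165240, minus strand, GRCm38), a high mobility group factor of the crest, was at 345 CPM in control and 364 CPM in mutant melanocytes, a ratio of 1.06 (0.828 to 1.34), and was detected in every melanocyte. Schwann-type cells, which were gated on Sox10, held 305 and 347 CPM. Pax3 (chr1:78101267-78197134), a paired box factor, was at 312 and 338 CPM, but each melanocyte had to hold a Pax3 UMI. The interval of the Sox10 ratio takes in 1.

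Ednrb (chr14:103814625-103844402) was at 1525 and 1644 CPM, a ratio of 1.08 (0.964 to 1.21), and ranged from 295 to 3815 CPM among control cells and from 646 to 3031 CPM among mutant cells. Kit (chr5:75574916-75656722) was at 212 and 184 CPM, a ratio of 0.866 (0.620 to 1.20), and was detected in 33 of 41 and 19 of 21 cells. Kit also had UMIs in RPE cells, at 34.5 and 27.4 CPM.

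Among the pigment genes of the rule, Dct, Pmel and Mlana were higher and Mitf was lower in mutant melanocytes, each with an interval clear of 1, but for Mlana the direction turned in the cells with Xist alone. Dct was at 9541 and 12759 CPM, a ratio of 1.34 (1.28 to 1.39), and its median per cell was 9478 and 13579 CPM. Pmel was at 8501 and 10530 CPM (1.24, 1.18 to 1.30), and Mlana, a melanosomal membrane protein, at 686 and 1001 CPM (1.46, 1.25 to 1.70). In the 7 mutant cells with Xist alone Mlana was at 483 CPM (348 to 653), under the control, and in the 11 with Y-linked UMIs alone at 1224 CPM, and 1 cell held 23.6% of its mutant UMIs. Dct and Pmel were at 14327 and 11278 CPM in the cells with Xist alone and at 12164 and 10205 CPM in those with Y-linked UMIs alone. Mitf was at 771 and 627 CPM (0.813, 0.682 to 0.965). Tyr (1.04, 0.862 to 1.25), Slc45a2, a melanosomal transporter (0.936, 0.755 to 1.16) and Mlph, which links melanosomes to myosin (0.969, 0.740 to 1.26) were closer to 1. Set against RPE cells, which were also gated on these genes, Dct, Pmel, Mitf, Slc45a2 and Mlph stood higher in melanocytes of both libraries, while Mlana and Tyr did not. RPE cells held 2134 and 2193 CPM of Dct, 6948 and 6804 CPM of Pmel, 1095 and 1045 CPM of Mlana, 212 and 154 CPM of Mitf, 101 and 90.9 CPM of Slc45a2, 13.3 and 15.9 CPM of Mlph and 662 and 656 CPM of Tyr, against 582 and 604 CPM of Tyr in melanocytes. These genes also selected the cells, which held no fewer than 110 (control) and 139 (mutant) pigment UMIs.

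The list of melanin genes outside the rule has 18 members. For these, melanocytes were set against RPE cells and Schwann-type cells of the same library. Of all genes with 50 or more UMIs over both classes, 7.81% were at least 2-fold higher and 17.7% at least 2-fold lower in melanocytes than in RPE cells of the control (8196 genes, median log2 ratio -0.07), and 7.52% and 16.8% in the mutant (5158 genes, median -0.10). Of the melanin genes outside the rule, 3 were higher and 3 lower among 15 measured in the control, and 3 were higher and 3 lower among 13 in the mutant, with median log2 ratios of 0.47 and 0.48. Members of the list thus lay on both sides.

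Gpr143, a melanosomal receptor that sets melanosome size, was at 228 CPM in control and 230 CPM in mutant melanocytes and at 58.4 and 47.6 CPM in RPE cells, 3.90 (3.11 to 4.87) and 4.83 (3.45 to 6.76) times higher. Syngr1, a vesicle protein, was 3.21 and 3.95 times higher. Cited1, a transcriptional cofactor known from melanocytes, was at 140 and 220 CPM in melanocytes and at 6.80 and 3.66 CPM in RPE cells, 20.6 (13.0 to 33.8) and 60.1 (26.2 to 170) times higher. All 3 genes were on the melanocyte side in both libraries.

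Trpm1, a cation channel whose transcript hosts a microRNA, lay on the RPE side, at 649 and 669 CPM in melanocytes and 2129 and 1834 CPM in RPE cells, with ratios of 0.305 (0.274 to 0.338) and 0.365 (0.315 to 0.421). Oca2, a melanosomal transport protein, had 12 and 22 UMIs in melanocytes and was at 155 and 160 CPM in RPE cells, with ratios of 0.136 (0.0699 to 0.239) and 0.450 (0.277 to 0.696). Slc7a11, the cystine transporter used in pheomelanin synthesis, had 0 UMIs in all 62 melanocytes and was at 136 and 104 CPM in RPE cells, so that melanocytes were at most 0.0386 and 0.0944 times the RPE level with the floor of 3 UMIs set in place of 0. Slc24a5, a potassium-dependent cation exchanger of the melanosome, was 1.33 and 1.99 times the RPE level. Gpnmb, a glycoprotein related to Pmel, was 1.17 and 1.40 times that level, and Bace2, the protease that cuts PMEL, was 1.39 and 1.38 times it.

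Tyrp1 lay on different sides in the 2 libraries. It was at 268 CPM (227 to 314) in control melanocytes and 492 CPM in control RPE cells, a ratio of 0.545 (0.459 to 0.643), but at 814 CPM in mutant melanocytes and 439 CPM in mutant RPE cells, a ratio of 1.86 (1.60 to 2.15). Schwann-type cells, at median depths of 15415 and 16357 UMIs, held 0 UMIs and 1 UMI.

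**Figure D3:**
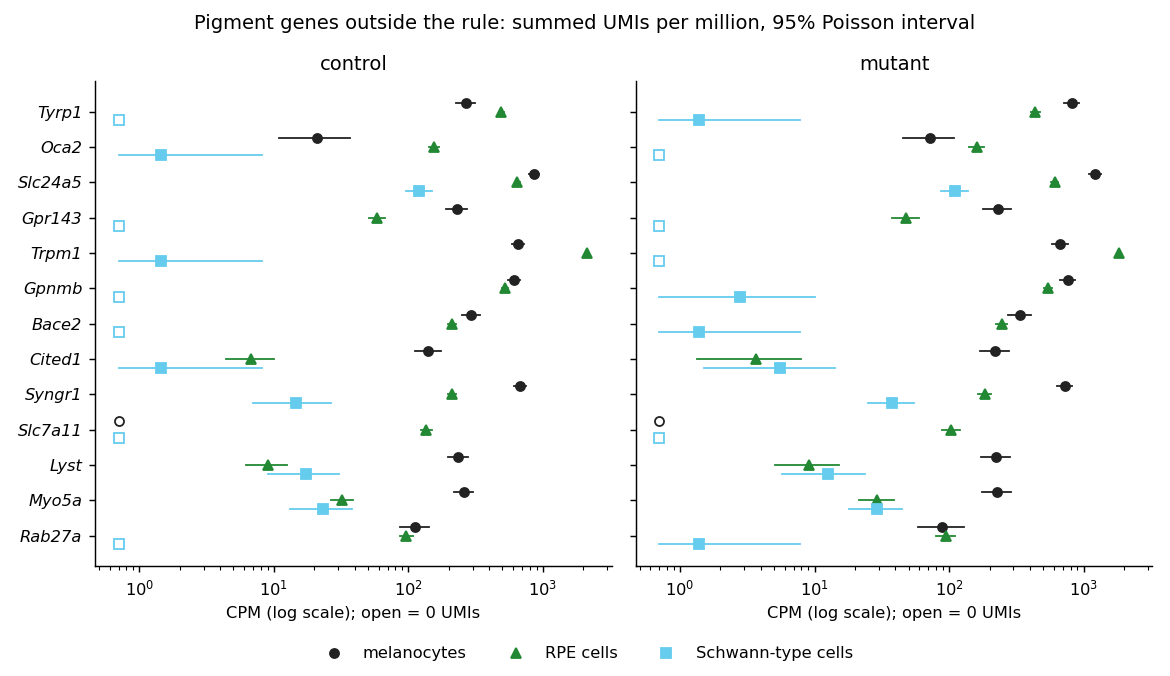
CPM on a log axis, with 95% Poisson intervals, of 13 genes outside the rule in melanocytes (circles), RPE cells (triangles) and Schwann-type cells (squares), control left and mutant right, with open symbols at the left edge for 0 UMIs. Gpr143, Cited1, Syngr1, Lyst and Myo5a lie to the right in melanocytes, Trpm1, Oca2 and Slc7a11 lie to the right in RPE cells, and the order for Tyrp1 differs between the libraries.

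Against Schwann-type cells, 9 of 10 measured melanin genes were at least 2-fold higher in each library, with median log2 ratios of 5.83 and 5.54, where 9.02% of 3881 genes in the control and 7.53% of 3242 in the mutant were that much higher. The exception was Trpm7, a channel kinase of wide expression, with ratios of 0.837 and 0.751. Schwann-type cells were required to hold fewer than 3 pigment genes, so part of this contrast follows from their gate. A measured gene also had to reach a limit of UMIs summed over both classes, which melanocytes could meet alone. In the control Tyrp1, Gpr143, Gpnmb and Bace2 had no UMI in Schwann-type cells, and in the mutant Gpr143 and Trpm1 had none. The count of 9 of 10 thus follows in part from that limit, and its distance from the shares over all genes was not tested.

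Several genes of melanosome traffic stood far higher in melanocytes than in RPE cells. Lyst, the lysosomal trafficking regulator, was at 235 and 223 CPM in melanocytes and at 8.97 and 9.15 CPM in RPE cells, 26.2 (17.8 to 39.6) and 24.4 (13.8 to 46.0) times higher. Myo5a, the myosin that carries melanosomes along actin, was at 260 and 226 CPM and was 8.02 (6.26 to 10.3) and 7.74 (5.28 to 11.4) times higher. Sytl2, a RAB27 effector, was 4.32 and 11.2 times higher, and Ap3b1, an adaptor subunit for cargo sorting, was 2.94 and 3.33 times higher. Hps3, a subunit of the assembly complex BLOC-2, was at 91.2 and 121 CPM in melanocytes and 6.80 and 6.71 CPM in RPE cells. Rab27a, the small GTPase that links myosin to the melanosome through melanophilin, had ratios of 1.16 (0.874 to 1.52) and 0.937 (0.599 to 1.42). The subunits Bloc1s1, Bloc1s2, Bloc1s4, Bloc1s5 and Bloc1s6 of the assembly complex BLOC-1 had intervals that took in 1 in both libraries. Of the 23 trafficking genes, 6 were higher and 2 lower among 20 measured in the control, and 5 were higher and 1 lower among 16 in the mutant, with median log2 ratios of 0.28 and 0.12, beside 7.81% higher and 17.7% lower of all genes in the control and 7.52% and 16.8% in the mutant.

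Several crest genes outside the rule were far higher in melanocytes than in RPE cells, while others were absent or lower. Ets1, a factor of early crest, was at 361 and 223 CPM, 94.9 (55.3 to 177) and 61.0 (26.6 to 172) times the RPE level. Mef2c, a MADS box factor, was 52.5 and 199 times higher and Zeb2, a zinc finger repressor, 4.97 and 3.19 times. In the control, where they could be measured, Tfap2a was at 96.4 CPM in melanocytes with 1 UMI over all RPE cells, Erbb3, the neuregulin receptor, was 50.7 times higher and Mcam, an adhesion molecule of melanoblasts, 32.2 times higher. Of 14 measured crest genes in the control, 9 were at least 2-fold higher and 3 at least 2-fold lower, and of 7 in the mutant, 4 were higher and 1 was lower, where over all genes 7.81% and 17.7% in the control and 7.52% and 16.8% in the mutant were that far apart. In the control, Ets1, Tfap2a and Mcam reached 50 UMIs only through melanocytes, so the count of higher genes follows in part from that limit. Sox9, a factor that the RPE also uses, was at 26.3 and 59.1 CPM in melanocytes and 119 and 82.3 CPM in RPE cells. Sox8, Zic1 and Tfap2e had 0 UMIs in the melanocytes of both libraries.

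Against Schwann-type cells most crest genes outside the rule were lower in melanocytes, 7 of 12 in the control and 7 of 10 in the mutant at least 2-fold, where 10.4% and 13.8% of all genes were that much lower (median log2 ratios of all genes -0.03 and -0.13). Foxd3, a forkhead factor known to hold crest cells from the melanocyte fate, was at 31.6 and 32.8 CPM in melanocytes and at 382 and 350 CPM in Schwann-type cells, with ratios of 0.0826 (0.0482 to 0.133) and 0.0938 (0.0444 to 0.175), but Foxd3 and Erbb3 are among the genes that gated Schwann-type cells. Sox5 was lower with ratios of 0.380 and 0.388, and Zeb2 with 0.398 and 0.353. Ets1 was the 1 gene of the list at least 2-fold higher in melanocytes in both libraries, 2.56 and 2.03 times.

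Ligands for the crest receptors were found in other cells. Kitl, the ligand of KIT, was at 34.8 and 36.6 CPM in mesenchyme and at 33.4 and 40.4 CPM in Schwann-type cells, and had 3 UMIs in the melanocytes of each library. Edn3, the endothelin that acts on EDNRB in melanoblasts, was at 23.3 and 24.9 CPM in mesenchyme and had 1 UMI and 0 UMIs in melanocytes. Mesenchyme thus carried both ligands at close to the same level in both genotypes. Ednra, the endothelin receptor of other crest derivatives, was at 34.1 and 36.2 CPM in mesenchyme and had 2 UMIs and 0 UMIs in melanocytes.

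Downstream of the receptors, Dusp4 and Dusp6, phosphatases induced by ERK signaling, were at 114 and 98.2 CPM in control melanocytes, against 7.61 and 4.35 CPM in control RPE cells. Mutant melanocytes held 88.6 and 78.8 CPM, with mutant to control ratios of 0.778 (0.477 to 1.24) and 0.802 (0.475 to 1.32). Etv1, an ETS factor, was 4.69 times the RPE level in the control, and Shc1, an adaptor of receptor kinases, was 2.19 and 2.75 times higher.

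Adhesion genes were set against both classes. Of 14 cadherin and integrin genes, 2 were at least 2-fold higher and 4 lower than in RPE cells among 10 measured in the control, and 1 higher and 3 lower among 7 in the mutant, beside shares over all genes of 7.81% higher and 17.7% lower, and 7.52% and 16.8%. Against Schwann-type cells 1 was higher and 3 lower among 7 in the control and 0 higher and 5 lower among 8 in the mutant, where 9.02% and 7.53% of all genes were higher and 10.4% and 13.8% lower. Itga4, an integrin subunit for fibronectin and VCAM1, was at 394 and 233 CPM in melanocytes and had 2 UMIs in the RPE cells of each library, and its level was 2.26 (1.80 to 2.85) and 1.71 (1.24 to 2.34) times the Schwann-type level. Cdh6, a cadherin of delaminating crest, had 0 UMIs in all melanocytes and was at 504 and 351 CPM in Schwann-type cells. Cdh3, a cadherin of pigmented epithelium, had 1 UMI and 0 UMIs in melanocytes and was at 99.5 and 89.6 CPM in RPE cells. Cdh11, a mesenchymal cadherin, had 3 UMIs and 1 UMI in melanocytes. Cdh1, the epithelial cadherin, had 12 and 8 UMIs in melanocytes and none in RPE cells.

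Across all genes measured in both libraries, 252 of 5146 (4.9%) were at least 2-fold higher in melanocytes than in RPE cells in both. Another 597 (11.6%) were at least 2-fold lower. The genes of the rule and of the RPE gate were left out. Melanocytes, but not RPE cells, had been cleared of cells that met another gate. Of the RPE cells, 15 control and 11 mutant cells held 5 or more mesenchyme genes. Neural retina genes summed to 755 and 1121 CPM in RPE cells and to 47.3 and 105 CPM in melanocytes. The part of this in the 597 genes was not tested. The 10 genes outside the rule that were furthest on the melanocyte side, ranked by the less extreme library, were Syt4, Art5, Klhl30, Itga4, Phyhipl, Gjb2, Scrg1, Insc, Rasgrp3 and Art3. Syt4, a synaptotagmin of vesicle traffic, was at 1283 and 1254 CPM in all 62 melanocytes, and had 3 UMIs and 0 UMIs in RPE cells. Gjb2, a gap junction connexin, was at 200 and 249 CPM in 39 of 41 and 21 of 21 cells. Rasgrp3, an exchange factor for Ras, was at 203 and 177 CPM and had 0 UMIs in Schwann-type cells of both libraries.

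The 10 genes furthest on the RPE side were Igfbp5, Cryab, Krt18, Sgk1, Igfbp2, Cthrc1, Lmo1, Clu, Col8a1 and Mab21l2. Krt18, a keratin of simple epithelia, was at 1457 and 1612 CPM in RPE cells and had 1 UMI and 0 UMIs in melanocytes. Cryab, a small heat shock protein, was at 609 CPM in the RPE cells of both libraries and had 2 UMIs and 1 UMI in melanocytes. Igfbp5, Igfbp2 and Cthrc1 are also mesenchymal, at 892, 1643 and 780 CPM in control mesenchyme. RPE cells as gated here carried the mesenchyme genes at 2377 and 3446 CPM and erythroid genes at 11024 and 5383 CPM, against 347 and 230 CPM for the erythroid genes in melanocytes, and the part of this in the 3 genes was not tested.

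Against Schwann-type cells, 182 of 3136 genes (5.8%) were at least 2-fold higher in melanocytes in both libraries and 254 (8.1%) at least 2-fold lower. The 10 furthest on the melanocyte side were Ptgds, Syt4, Trpm1, Gpnmb, Mgll, Bhlhe41, Fabp3, Bace2, Tyrp1 and Gjb2. Ptgds, lipocalin-type prostaglandin D synthase, was at 6471 and 10918 CPM in melanocytes and had 0 UMIs in Schwann-type cells. It is listed among RPE genes, yet RPE cells held 1393 and 1338 CPM, so melanocytes were 4.64 (4.45 to 4.85) and 8.16 (7.73 to 8.62) times higher. Bhlhe41, a circadian repressor, and Fabp3, a fatty acid carrier, had 0 UMIs in Schwann-type cells and were at 419 and 358 CPM in control melanocytes and 417 and 502 CPM in mutant melanocytes. The 10 furthest on the Schwann side were Cryab, Postn, Igfbp5, Ptprz1, Gap43, Egfl8, Col18a1, Lamb1, Moxd1 and Ptn. Gap43, a growth cone protein, was at 637 and 336 CPM in Schwann-type cells and had 4 UMIs and 1 UMI in melanocytes. Col18a1 and Lamb1, of the basement membrane, had at most 2 UMIs in the melanocytes of either library. Postn, a matrix protein, led the mesenchyme genes in control Schwann-type cells, which carried that list at 1584 and 2202 CPM against 77.1 and 115 CPM in melanocytes. Erythroid genes stood at 225 and 8445 CPM in Schwann-type cells and at 347 and 230 CPM in melanocytes. Melanocytes, but not Schwann-type cells, had been cleared of cells that met another gate, and the part of this in the genes of the Schwann side was not tested.

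The targeted gene gave no measure of Cre action in melanocytes. Myrf (chr19:10208272-10240748, minus strand) had 0 UMIs in 41 control melanocytes, which allows up to 6.47 CPM, and 1 UMI in 21 mutant melanocytes. RPE cells held 69.3 CPM (61.1 to 78.4) in the control and 28.7 CPM (21.1 to 38.1) in the mutant. Among all cells that met the rule Myrf was at 25.3 and 16.7 CPM, and 38 of its 40 control UMIs were in Pax3-negative cells. Reads of the 3′ end need not report the deleted exons, so Myrf counts cannot show whether an allele was recombined.

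Few genes differed 2-fold between the melanocytes of the 2 genotypes. Of 2709 genes with 50 or more UMIs over both libraries, 13 (0.48%) were at least 2-fold higher and 38 (1.4%) at least 2-fold lower in the mutant, with a median log2 ratio of -0.04. The 10 highest with an interval clear of 1 were Cck, Car4, Kcnj13, Ralgps2, Tyrp1, Cenpf, 6330403K07Rik, Rps27rt, Car14 and Smarca2. Tyrp1 was the 1 pigment gene among them.

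Tyrp1 (chr4:80834123-80851719) rested on many cells. It was detected in 28 of 41 control melanocytes and in 19 of 21 mutant melanocytes, with medians per cell of 130 and 485 CPM and highest cells of 1118 and 2299 CPM. The ranges overlapped. The summed level was 268 CPM in control and 814 CPM in mutant cells, 3.03 times higher (2.47 to 3.74). In RPE cells Tyrp1 was 0.891 (0.816 to 0.972) times the control level, so the genotype ratio was above 1 in melanocytes and under 1 in RPE cells, a difference that was not tested. Among female mutant melanocytes, 7 cells by their Xist UMIs, Tyrp1 was at 760 CPM (587 to 966), near the 814 CPM of the 11 cells with Y-linked UMIs.

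Cck, the precursor of the peptide cholecystokinin, had the highest ratio and rested on few cells. It was at 110 CPM in control and 896 CPM in mutant melanocytes, 8.11 times higher (6.15 to 10.8), but it was seen in only 10 of 41 and 8 of 21 cells, and 5 mutant cells held 97.1% of its UMIs. In the 7 mutant cells with Xist alone it was at 414 CPM, and in the 11 with Y-linked UMIs alone at 1156 CPM. RPE cells held 34.8 and 39.0 CPM, a ratio of 1.12 (0.818 to 1.53).

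Car4, a membrane-anchored carbonic anhydrase, was at 57.9 and 325 CPM, 5.62 times higher (3.75 to 8.60), and was seen in 10 of 41 and 11 of 21 cells. It had 0 UMIs in RPE, Schwann-type and mesenchyme cells of both libraries. Kcnj13, an inward rectifier potassium channel known from the RPE, was at 70.1 and 295 CPM, 4.21 times higher (2.87 to 6.28), and was seen in 9 of 41 and 16 of 21 cells. RPE cells held less of it, at 20.4 and 17.1 CPM. In the 7 mutant cells with Xist alone Car4 was at 575 CPM and Kcnj13 at 403 CPM, both above the level over all mutant melanocytes. In the 11 cells with Y-linked UMIs alone Car4 was at 171 CPM, in 4 cells, and Kcnj13 at 239 CPM.

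**Figure D4:**
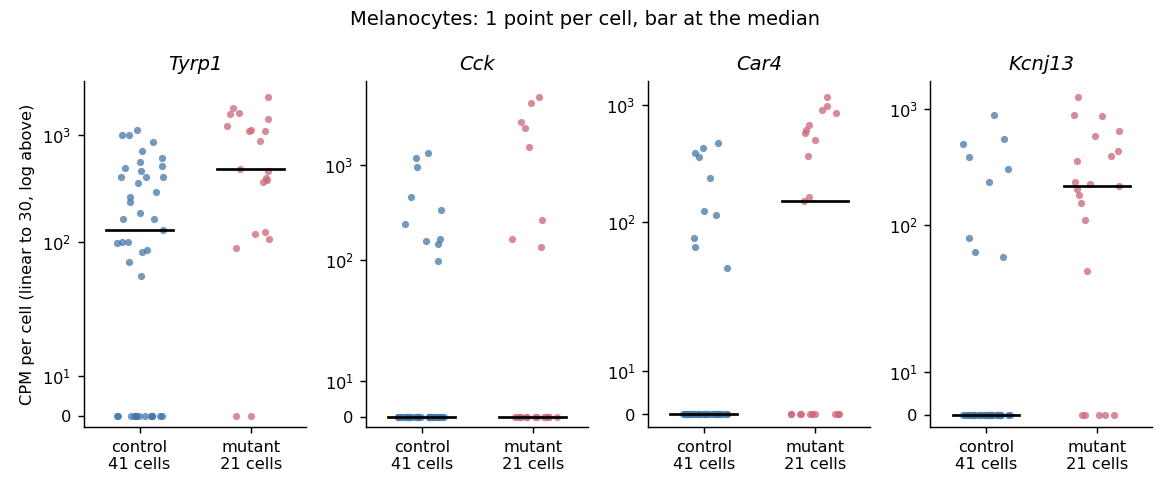
CPM per melanocyte of Tyrp1, Cck, Car4 and Kcnj13 in the control (41 cells) and the mutant (21 cells), 1 point per cell with a bar at the median, on an axis that is linear up to 30 CPM and logarithmic above. The medians of Tyrp1 are 130 and 485 CPM, Cck has a median of 0 in both, and Kcnj13 is seen in 16 of 21 mutant cells against 9 of 41 control cells.

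In the mutant these genes were often seen in 1 cell together. Of the 21 mutant melanocytes, 6 had UMIs of all of Cck, Car4 and Kcnj13, 6 had 2 of the genes, 5 had 1 and 4 had none, while none of the 41 control melanocytes had all of them and 18 had none. The median level of Tyrp1 in the mutant was 115 CPM in cells with none of the genes, 485 CPM with 1, 780 CPM with 2 and 1616 CPM with all. In the control the median was 115 CPM with none, 293 CPM with 1 and 48.6 CPM with 2. Control cells with Car4 had a Tyrp1 median of 326 CPM against 100.5 CPM without it. For Kcnj13 the control medians were 404 and 99.9 CPM, and for Cck, the other way, 42.1 and 188.5 CPM. All 11 mutant cells with Car4 had Tyrp1, at a median of 1219 CPM, against 121 CPM in the 10 mutant cells without Car4, and their median depths were 13735 and 10396 UMIs. All 8 mutant cells with Cck had Kcnj13 and Tyrp1. Cck, Car4 and Kcnj13 were detected in 10, 10 and 9 of 41 control cells and in 8, 11 and 16 of 21 mutant cells. More shared cells in the mutant thus follow from detection alone, and whether the genes met more often than that was not tested. These genes were chosen for their difference between the libraries, and the cells of 1 pool are not replicates.

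Among the other genes, Ralgps2, an exchange factor for Ral GTPases, was at 31.6 and 125 CPM, a ratio of 3.95 (2.20 to 7.36) and was seen in 14 cells of each library. In the 7 mutant cells with Xist alone Ralgps2 was at 230 CPM, and in the 11 with Y-linked UMIs alone at 91.1 CPM. Car14, a carbonic anhydrase, was at 68.4 and 151 CPM (2.21, 1.41 to 3.47), and RPE cells held 394 and 369 CPM. In the 11 mutant cells with Y-linked UMIs alone Car14 was at 120 CPM (74.0 to 183), less than 2-fold above the control. Rps27rt was 2.63 (1.57 to 4.49) times higher in melanocytes and 2.50 (1.98 to 3.17) times higher in RPE cells. As a retrocopy of a ribosomal gene, it may share reads with its parent. Cenpf, a kinetochore protein of dividing cells, was at 66.6 and 187 CPM, but 1 cell held 96.5% of its mutant UMIs and 1 cell 78.9% of its control UMIs. Without the deepest melanocyte of each library its log2 ratio was -3.27 in place of 1.49.

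The 10 lowest were Hist1h2ap, Hmga2, Bst2, Trim24, Hist1h2ae, Atxn2, Atad2, Pds5b, Tlk1 and Fbl. They lay near the limit of 50 UMIs, with 43 to 77 UMIs in the control and 3 to 15 in the mutant. None of them would be counted at a limit of 100 UMIs over both libraries. Hmga2 (chr10:120361275-120476469), an architectural chromatin protein of embryonic cells, was at 117 CPM in control and 16.4 CPM in mutant melanocytes, a ratio of 0.140 (0.0439 to 0.343), in 22 of 41 and 5 of 21 cells. It was also lower in mutant mesenchyme, at 79.9 and 49.3 CPM, and in mutant Schwann-type cells, at 182 and 85.0 CPM. Trim24, a chromatin reader, was at 85.9 and 19.7 CPM (0.229, 0.0802 to 0.536) and was detected in 25 of 41 and 6 of 21 cells. Bst2, an interferon-induced membrane protein, had the same UMI sums as Trim24 in both libraries, in 12 of 41 and 5 of 21 cells. It rested on fewer cells, since 5 control cells held 83.7% of its UMIs, against 42.9% for Trim24.

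The histone genes rested on few cells. Hist1h2ap had 74 UMIs in 8 control cells and 3 UMIs in 2 mutant cells, a ratio of 0.0759 (0.0153 to 0.231), and 5 control cells held 95.9% of its UMIs. Hist1h2ae had 52 and 7 UMIs, a ratio of 0.252 (0.0966 to 0.557), while in RPE cells its ratio was 1.21 (1.06 to 1.39). Histone genes of this cluster are near-identical in sequence and share reads, so their single values are uncertain. Atad2 and Pds5b, chromatin and cohesin factors, were at 0.324 and 0.340 times the control level in melanocytes and at 0.693 and 0.602 times it in RPE cells. For Atad2, 5 control melanocytes held 76.9% of the UMIs. Fbl, the nucleolar protein fibrillarin, was at 135 and 49.2 CPM and was detected in 28 of 41 and 9 of 21 cells. In the 7 mutant cells with Xist alone Fbl was at 80.6 CPM (32.4 to 166), less than 2-fold under the control, and in the 11 with Y-linked UMIs alone at 22.8 CPM.

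**Figure D5:**
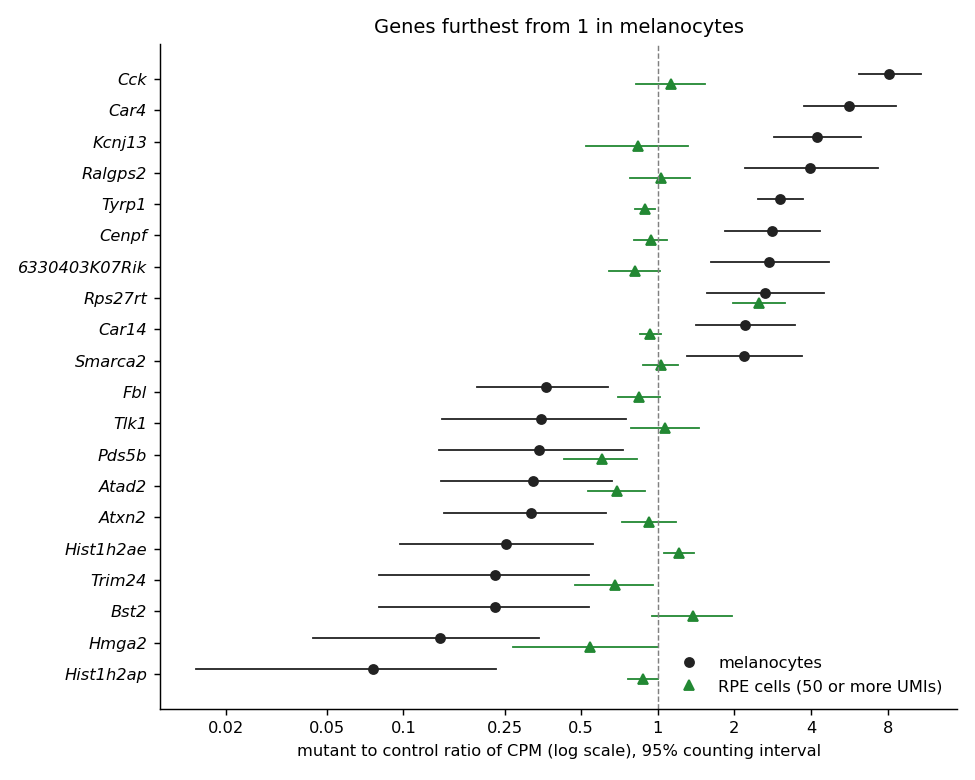
Mutant to control ratio of CPM, on a log axis with 95% counting intervals, for the 10 genes furthest above 1 and the 10 furthest below 1 in melanocytes (black circles), with RPE cells (green triangles) where a gene had 50 or more UMIs there. Tyrp1 lies at 3.03 in melanocytes and 0.891 in RPE cells, and Rps27rt lies near 2.5 in both.

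Over all 129 cells that met the rule, 95 of 6308 genes (1.51%) were at least 2-fold higher and 242 (3.84%) at least 2-fold lower in the mutant. Markers of other cells moved with these counts. All 9 measured mesenchyme genes were at least 2-fold lower (median log2 ratio -5.43), with the list of 10 at 6864 CPM in control and 142 CPM in mutant cells. So were all 4 measured erythroid genes (-5.36), with the list of 8 at 7779 and 193 CPM. Of 8 measured neural retina genes, 6 were at least 2-fold higher (1.26), with the list of 12 at 510 and 1351 CPM. The lowest genes were Dkk2, Bgn and Col6a3, and the highest Neurog2, Clec18a and Hes5. Of 10839 mesenchyme UMIs in the control, melanocytes held 44, Pax3-positive cells with another gate 1507 and Pax3-negative cells with RPE genes 888. The other 7 control cells, 1 of them with 159610 UMIs, held the rest. Of 12284 erythroid UMIs in the control, 11919 were in the Pax3-positive cells with another gate. The part of other cells in the 95 and 242 genes was not tested. Melanocytes held the mesenchyme, erythroid and neural retina lists at 77.1, 347 and 47.3 CPM (control) and 115, 230 and 105 CPM (mutant). In melanocytes, where 0.48% of all 2709 genes were at least 2-fold higher and 1.4% at least 2-fold lower, no list had a median past 2-fold between the genotypes. The melanin genes outside the rule had a median log2 ratio of 0.15 over 10 measured genes, with 1 at least 2-fold higher and none lower, and the trafficking genes 0.15 over 10. The crest genes outside the rule had a median of -0.42 over 8, with none past 2-fold, the genes of the Kit and endothelin pathways -0.09 over 8 and the cadherin and integrin genes -0.56 over 3. Within these lists Ets1 (0.618, 0.463 to 0.816), Zeb2 (0.689, 0.513 to 0.916), Itga4 (0.591, 0.446 to 0.775) and Dtnbp1, a BLOC-1 subunit (0.553, 0.343 to 0.865), were lower in the mutant with intervals clear of 1, and Slc24a5 (1.41, 1.23 to 1.61), Gpnmb (1.25, 1.06 to 1.48), Cited1 (1.57, 1.12 to 2.20) and Ptgds (1.69, 1.61 to 1.77) were higher. For Gpnmb the difference lay in the 7 mutant cells with Xist alone, at 1266 CPM, since the 11 with Y-linked UMIs alone held 587 CPM and the other 3 held 473 CPM, against 610 CPM in the control. The M phase genes had a median of 0.17 over 7, with Cenpf alone past 2-fold, and the S phase genes -0.36 over 7. Neither direction held: without the deepest cell of each library the medians were -2.42 and 0.09, and in cells with Xist alone the M phase median was -2.95. Of 44 genes that the study placed in a SOX10 network from its own libraries, 4 could be measured in melanocytes, with a median of -0.06. Dissociation stress genes had a median of -0.32 over 5, the RPE, Schwann and erythroid lists had 2, 3 and 2 measured members with medians of 0.32, 0.21 and -0.36, and p53 target genes had 1 measured member. The mesenchyme, neural retina, immune, mast cell, endothelial and MYRF-dependent lists had no member with 50 UMIs.

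Cell cycle genes were read after thinning each cell to 2000 UMIs. A UMI of any of 12 M phase genes was found in 13 of 41 control melanocytes (31.7%, Clopper-Pearson 18.1 to 48.1) and 6 of 21 mutant melanocytes (28.6%, 11.3 to 52.2). The share in retinal ganglion cells, which have left the cycle, was 14.1% and 14.5%, and in retinal progenitors 79.2% and 79.8%. A UMI of any of 12 S phase genes was found in 46.3% and 47.6%, against 37.2% and 36.8% in ganglion cells. The unthinned shares were 61.0% and 76.2% for M phase genes and 95.1% and 95.2% for S phase genes, at median depths of 12713 and 13467 UMIs. The intervals of the 2 libraries overlapped, and with 1 library per genotype no difference between the genotypes could be tested. The M phase UMIs were concentrated, since after thinning 5 cells held 83.3% and 94.1% of them.

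Variation among melanocytes was read as the ratio of variance to mean after thinning to 5000 UMIs. The 10 genes with the highest ratio in the control were Malat1, Ttr, Hmgb2, Ube2c, Ptgds, H2afz, Pmel, Top2a, Tpt1 and Cck, and in the mutant Malat1, Ptgds, Cck, Pmel, Cks2, Hmgb2, Gm42418, Id3, Selenop and H1f0. The median ratio over ranked genes was 1.10 and 1.07, near the value of 1 that counting alone gives. Hmgb2, Ube2c, Top2a and Cks2 are genes of dividing cells. Pmel ranged from 5 to 75 UMIs per thinned control cell with a ratio of 6.72, and Ptgds from 7 to 75 with 9.02. Ttr, which is abundant in RPE cells, had a ratio of 19.5 in the control, where its highest cell held 28 UMIs and the median was 0.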

How the data were processed

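Single-cell 3′ libraries of e15.5 mouse eye cups were made with 10x chemistry, 1 library per genotype from 3 pooled eye cups. The deposited files hold whole-number UMI counts per gene and barcode, which the authors made by aligning reads to mm10, with Cell Ranger 7.1.0 and Seurat 4.1.1 named in the submitters' processing notes, while the file header names software version 3.1.0. In the deposited counts every barcode held at least 500 UMIs. The study's methods removed cells above 2000 counts as doublets, which is not compatible with the rule used here, and no such limit was applied.

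Counts were read with Python 3.11.15, numpy 2.4.6, scipy 1.17.1 and pandas 2.3.3. Cells with 200 genes, 2000 UMIs and at most 15% mitochondrial UMIs were kept, which removed 879 control and 733 mutant barcodes for mitochondrial share, 196 and 129 of the rest for fewer than 200 genes and a further 2220 and 2310 for depth. The marker rule was then applied. The members, gene lists and marker genes were chosen with earlier results of these data known, and the melanocyte set after the values were seen. RPE cells held 3 or more pigment genes of the rule and 2 or more of the 6 RPE gate genes and did not meet the marker rule. Schwann-type cells held Sox10, 2 or more genes of a Schwann marker set that includes Foxd3, Cdh19 and Erbb3, and fewer than 3 pigment genes. Mesenchyme held 5 or more genes of a set that includes Col1a1, Col1a2, Col3a1, Twist1, Lum and Foxc1. Some members of these sets are not reported here. Scrublet (scanpy 1.11.5) marked no mutant cell at its own threshold, so the control's threshold was used for both, which marked 334 control and 349 mutant barcodes, 4 of them among the cells of the rule. Marked cells were kept in the values.

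UMIs were summed per class and library and scaled to CPM, with exact Poisson intervals. Ratios were taken between CPM values with exact conditional binomial intervals, shares with Clopper-Pearson intervals and ratios of cell numbers with the exact conditional interval, all at 95% and for counting error only. Ratios were read for genes with 50 or more UMIs over both sides, so a gene could enter through 1 side alone. A count of 0 was set to a floor of 3 UMIs, which makes the ratio a bound. No test across conditions was made, because each genotype has 1 library and cells are not replicates. Named genes were the 10 highest and 10 lowest ratios. For class comparisons the less extreme library was ranked, with the genes of the rule and of the gates left out. Between genotypes the interval had to leave out 1, and Xist, Y-linked, haemoglobin and mitochondrial genes were left out. For variation the 10 largest ratios of variance to mean were taken, at a mean of 0.5 UMIs or more and without haemoglobin and mitochondrial genes. These rules were applied to the melanocyte set. The ratio script was tested on simulated data. Gene positions came from GENCODE M21 and promoter windows from RefSeq, both on GRCm38. Figures used matplotlib 3.10.9.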

Additional observations from a re-analysis of the deposited data

Results flagged for a closer look

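Tyrp1 had mutant to control ratios on different sides of 1 in the 2 pigment cell classes, 3.03 (2.47 to 3.74) in melanocytes and 0.891 (0.816 to 0.972) in RPE cells. Hist1h2ae did so in the other order, with 0.252 (0.0966 to 0.557) in melanocytes and 1.21 (1.06 to 1.39) in RPE cells. With 1 library per genotype neither difference was tested.

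Y-linked genes entered no comparison, and their UMIs were present in 11 of 21 mutant melanocytes and in 0 of 41 control melanocytes. Sex and genotype are therefore partly confounded, and their parts in any ratio between the libraries cannot be told apart outside the 7 mutant melanocytes with Xist alone.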

How the results depend on the processing

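Of the recomputed values that answer a comparison, 338 were close to the main value, 44 lay further off and 1, whose first interval was clear of no change, took the other sign, and for named genes these counts were 180, 6 and 3. Of 257 recomputed log2 medians and ratios of this kind, 31 had the other sign, and of 189 for named genes 4 did. The ratio of shares stayed under 1 in each recomputed setting, and Tyrp1, Cck, Car4 and Kcnj13 stayed higher in mutant melanocytes in each. No paired analysis was possible because there is 1 library per genotype, and for the same reason no library could be left out. In all cells of the rule, the 95 higher and 242 lower genes became 44 higher with a mitochondrial limit of 5%, 32 and 59 with the rule read on cells thinned to 2000 UMIs, 34 and 120 with 3 or more crest genes, 28 and 100 with Pax3 required, 13 and 38 with Pax3 and no other gate (a setting chosen after seeing the data), 118 lower without the deepest cell of each library, 270 and 631 for genes with 20 or more UMIs and 45 and 99 with 100 or more. In melanocytes, 13 and 38 became 39 and 154 in cells with Xist alone, 127 and 280 with 20 or more UMIs and 6 and 3 with 100 or more; the Xist setting has fewer cells. Among all cells of the rule, median log2 ratios of the Kit and endothelin genes (-0.10) were 0.0798 at the 5% limit and 0.0640 with Pax3 required, of the S phase genes (-0.19) -0.50 and of Sox10 (0.04) 0.54 at that limit, of trafficking genes (0.06) -0.20 with Xist alone, and of M phase genes (0.57) -2.01 thinned, 0.88 with Xist alone, 0.19 without the deepest cells and 0.17 with no other gate. The mutant share with an M phase UMI was 20% with the thinned rule. In melanocytes the M phase median (0.17) was -3.69 thinned, -2.95 with Xist alone and -2.42 without the deepest cells, where Cenpf (1.49) was -2.81, -0.95 and -3.27. The S phase median (-0.36) was 0.60 thinned and -1.33 with Xist alone, the trafficking median (0.15) was 0.31 with Xist alone, and the melanin median against control RPE cells (0.47) was 0.84 at the 5% limit. Without thinning, cells with an M phase UMI were 64.7% and 77.3% and with an S phase UMI 95.3% and 95.5% of all cells of the rule, and 61.0%, 76.2%, 95.1% and 95.2% of melanocytes. Apart from these constructions the cause was not tested. Depth limits genes under 50 UMIs, and the M phase values rest on a few cells.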
